A study of Ovis aries with 36 samples.

Results

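In the infraspinatus muscle of sheep, 77 of 25197 measured genes were lower after release of the tendon and stood near or above the level of the opposite, unoperated muscle at the end of the experiment. They were chosen on log2(value + 1), where a value is a normalised read count. The mean over 9 animals of the muscle at repair (TR) minus the same muscle before release (PRE) had to be at most −0.7. The mean of the operated muscle at the end (END) minus the unoperated muscle at the end (END-CC) had to be above −0.2. A gene also needed a value above 1 in all 36 libraries and a median of 10 to 10000, which 12393 genes met, 309 of them at or under the release threshold. The other 232 of these 309 were lower than the unoperated side at the end and serve as a comparison.

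Cutting the tendon of a rotator cuff muscle removes its load, and such muscle is known to lose fibre mass, shorten and gather fat and connective tissue. Reattachment restores tension, but the muscle is known to recover its former make-up poorly. Nandrolone is an anabolic androgen that acts through the androgen receptor of muscle, and its decanoate ester is released slowly after injection. The muscle of the opposite shoulder is a common internal control for this model, although it too lives through surgery, changed use of the limbs and any drug given to the animal. The genes are given by their Ensembl identifiers, which the files and the name table used here do not pair with gene names, so none is given a role.

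All animals were female Swiss Alpine sheep aged 2 years whose tendon was released for 16 weeks and then reattached for 6 weeks. Animals of the arm N22W were injected each week with 150 mg of nandrolone decanoate from release onward, those of N6W from repair onward, and CONTROL animals were given none. The PRE and TR libraries of N6W therefore come from undrugged animals. Each arm is represented by 3 animals, of 6 per arm in the study's design, and each animal gave a PRE, a TR, an END and an END-CC library of total RNA. The unoperated side was sampled at the end, and no earlier library of that side was analysed here.

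Reads recovered per library ran from 11879706 to 43066312, and a single gene took 22.5 to 37.2% of them. The files fall into 2 sets that are taken here to have been scaled apart: the 12 PRE and TR libraries of N22W and CONTROL, and the other 24 libraries. No source used here states this. It was read from the size factors recovered from the values, whose geometric mean was 1.001 in the first set and 1.0 in the second. In 591 genes, none of them among the 77, every value of the first set exceeded the highest value of the second by more than 8-fold. The reverse held for 0 genes. The first 37 gene identifiers, which the rule left out, took 2.84 to 6.47% of the signal in the first set. In the second set they took 0.49 to 1.40%. The sets thus differ in make-up, apart from how they were scaled, and 1 factor per library would not make them alike. Both differences in the rule lie within a set, and N6W is the arm with all 4 libraries of an animal in the same set. Samples are pieces of whole muscle, so fewer cells of a type and less RNA per cell cannot be told apart in any value given here.

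The release change that chose the 77 genes had a median of −0.85 on the log2 scale and ran from −2.75 to −0.70, beside a median of −0.05 over all 12393 genes past the level filters. In 21 genes it was −1 or lower, which is a 2-fold change. The value was lower at TR than at PRE in all 9 animals for 32 genes, in 8 animals for 28, in 7 animals for 10 and in 6 animals for 7. The median over the genes was −0.99 in N22W, −0.90 in N6W and −0.94 in CONTROL. Within the arms the genes were less uniform: the mean change was negative in every arm for 70 genes and −0.7 or lower in every arm for 20. These values come from the choice of the genes and carry no test.

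Animals of an arm also differed. The median change over the 77 genes was −1.13, −0.72 and −0.98 in the 3 N22W animals, −0.63, −0.79 and −1.20 in the 3 N6W animals, and −0.94, −0.81 and −0.80 in the 3 CONTROL animals. Every animal therefore stood well below its own median over all genes past the filters, the lowest of which was −0.12.

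**Figure D1:**
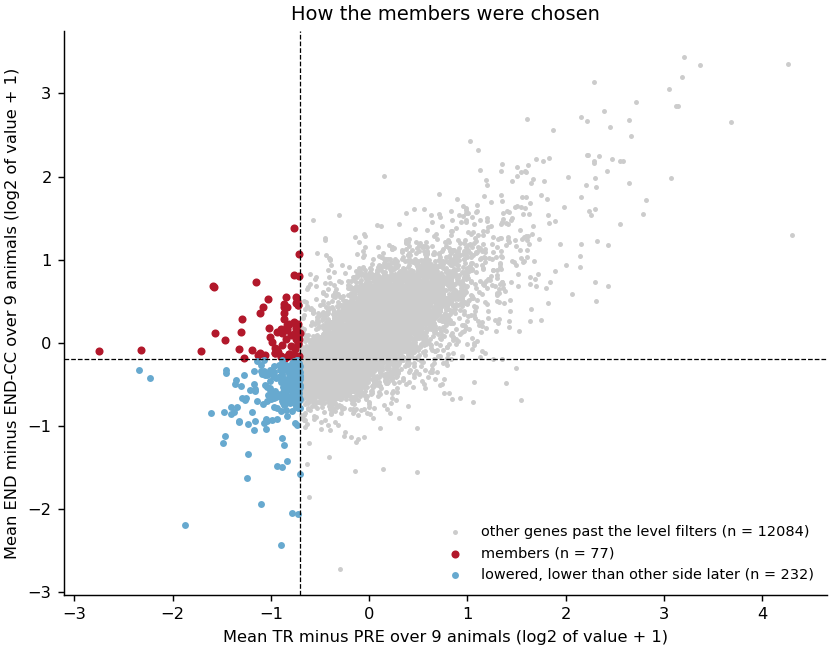
Mean change from PRE to TR (x axis) and mean difference of END from END-CC (y axis) over 9 animals, both on log2(value + 1), for the 77 genes chosen (dark red), the 232 other lowered genes (blue) and the remaining genes past the level filters (grey). Dashed lines mark the thresholds of −0.7 and −0.2. The 77 genes crowd against the release threshold, with a few far to its left.

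Against the unoperated side at the end, the 77 genes had a median difference of 0.10 and ran from −0.19 to 1.38. A total of 51 stood within 0.2 of the other side in either direction, and 26 were higher than it by more than 0.2. By this width the mean over 9 animals was level with the other side in 51 of the 77. Of the 26, 11 were higher by more than 0.5. END exceeded END-CC in all 9 animals for 7 genes and in at least 8 animals for 14. The arm medians were 0.08 in N22W, 0.14 in N6W and 0.08 in CONTROL. The SD of the difference over 9 animals ran from 0.17 to 1.53 among the 77, so a mean near 0 can hide opposite differences. ENSOARG00000006996, with a mean of −0.12, had arm means of 0.77 in N22W, −1.17 in N6W and 0.04 in CONTROL.

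Many genes lie close to the thresholds. The member nearest the release threshold stood at −0.7038 and the nearest gene outside at −0.6991, and for the difference between sides these values were −0.193 and −0.2009. Within 0.1 of the release threshold there were 28 members and 58 genes outside. Within 0.1 of the threshold for the sides there were 19 members and 22 genes outside.

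The 77 genes were of moderate abundance and varied more between animals than most. Their median value was 85.1 normalised reads, against 165 for all genes past the filters and 392 for the 232 other lowered genes. These levels are not corrected for gene length. The median SD between animals of an arm at PRE was 0.46 on the log2 scale for the 77 genes, 0.23 for all genes past the filters and 0.30 for the other lowered genes. At END-CC the corresponding SDs were 0.50, 0.24 and 0.35.

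The gene with the most negative release change, ENSOARG00000003501, was also the most abundant of the 77. At TR it had 2320, 8366 and 2023 normalised reads in N22W, 7003, 7061 and 1235 in N6W, and 2262, 3802 and 5092 in CONTROL. At PRE it had 19620, 19570 and 13730 in N22W, 12670, 25600 and 27790 in N6W, and 18370, 55080 and 61740 in CONTROL. Every TR value lay below every PRE value among the 6 animals of N22W and CONTROL, and likewise among the 3 of N6W, which were scaled apart from them. At END it had 1429, 2822 and 855 in N22W, 3546, 12110 and 2895 in N6W, and 3946, 1820 and 6970 in CONTROL. At END-CC it had 1803, 4070 and 1922 in N22W, 2578, 10820 and 1427 in N6W, and 2370, 2062 and 14660 in CONTROL. The operated and the unoperated side at the end thus overlapped in every arm. Both N6W groups at the end lay in the range of TR with 1 animal above it on each side, and every N6W value at the end lay below every N6W PRE value.

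The gene next in size of release change was ENSOARG00000017214, with a mean of −2.32 ± 1.33 (SD, n = 9). At TR it had 102, 58.4 and 106 normalised reads in N22W, 77.6, 74.1 and 55.8 in N6W, and 45.6, 99.9 and 71.6 in CONTROL. At PRE it had 159, 402 and 215 in N22W, 92.6, 738 and 494 in N6W, and 635, 1108 and 426 in CONTROL. The groups did not overlap in N22W or CONTROL, nor in N6W, where 1 PRE animal stood close to the TR range.

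The second most abundant of the 77 was ENSOARG00000002499, with a more even change. Its release change was −0.93 ± 0.36 (SD, n = 9) and it was lower at TR in all 9 animals. Its arm means were −0.89 in N22W, −0.89 in N6W and −1.02 in CONTROL. At TR it had 1941, 3805 and 1472 normalised reads in N6W, against 3846, 5085 and 3507 at PRE. Those N6W ranges overlapped, with the highest TR animal above the lowest PRE animal.

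To read the release change in animals that had not chosen the genes, the rule was applied to the 6 animals outside an arm and the chosen genes were tested in that arm alone. Genes were called with limma at an adjusted p (Benjamini-Hochberg over 16417 genes) under 0.05. In N22W, 37 of the 93 genes chosen without it were lower at TR and 1 was higher, where 10.5% of all tested genes were lower and 5.53% higher. Their median change was −0.60, against −0.04 over all tested genes. In CONTROL, 31 of the 111 genes chosen without it were lower and none was higher, beside 8.22% of all tested genes lower and 5.56% higher. Their median change was −0.56, against −0.06 over all tested genes. In N6W, 7 of 100 genes were lower and none was higher, beside 0.353% and 0.53% of all tested genes, and 83 of the 100 estimates were below 0. The median change there was −0.49, against 0.04 over all tested genes. Of the 12393 genes past the filters, from which the lists were drawn, 13.4% were lower in N22W, 10.4% in CONTROL and 0.444% in N6W. The shares of them called higher were 5.72%, 6.06% and 0.637%.

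In each arm the median change of genes chosen elsewhere was thus nearer 0 than the median of the 77 themselves. The lists overlap with the 77 by 49 of 93 genes for N22W, 55 of 111 for CONTROL and 53 of 100 for N6W, and any 2 of the lists share 3 of the animals that chose them. The counts depend on single animals. Without animal 2913 or 2915, 15 or 12 genes were called in N22W, and without 2901 or 2902, 19 or 7 were called in CONTROL. Each of these counts includes 1 gene called higher. Without animal 2907 or 2908 no gene of the list was called in N6W and without 2909 only 1 was, while the median change there stayed between −0.58 and −0.41.

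Among the named genes called in N6W by this route were ENSOARG00000015264 and ENSOARG00000004208. ENSOARG00000015264 had 2.39, 10.3 and 9.72 normalised reads at TR in N6W, against 52.2, 56.1 and 64.6 at PRE. Its change was −2.98 ± 0.45 (SE, limma, adjusted p = 0.0255). The TR and PRE ranges of this gene overlapped in the other arms, with 9.03, 14.3 and 4.02 at TR in N22W against 17.9, 9.40 and 9.04 at PRE, and with 13.2, 18.1 and 34.4 at TR in CONTROL against 18.6, 45.2 and 380 at PRE. ENSOARG00000004208 had 99.1, 186 and 69.0 normalised reads at TR in N6W, against 449, 412 and 336 at PRE, a change of −1.86 ± 0.22 (SE, limma, adjusted p = 0.0232). Neither gene stayed under the threshold when any of the 3 N6W animals was left out, with adjusted p from 0.0712 to 0.211.

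A gene can be level with the other side at the end because the operated muscle has returned to its early level, or because both sides are low. The rule does not decide between these. In N6W, where all 4 libraries of an animal are taken to be on the same scale, END and END-CC each lay below PRE in the mean for 71 of the 77. The unoperated side has no earlier library here, so whether it once stood at the level of PRE is not known. Relative to PRE, their median was −0.90 at TR, −0.82 at END and −0.995 at END-CC. The unoperated muscle at the end was nearer to the level of TR than to that of PRE in 61 of the 77 genes, and both END and END-CC were so in 52. This is 79.2% and 67.5% of the 77, beside 39.3% and 30.2% of all genes past the filters. For END alone it was 53 genes, or 68.8%, which is near the 60.0% of all genes past the filters. END-CC lay below PRE in all 3 animals for 68.8% of the 77 genes, and for 23.9% of all genes past the filters. END did so for 59.7% of the 77 and for 19.6% of all genes past the filters. N6W was among the animals that chose the genes, so these values are a description.

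In the 232 other lowered genes, END-CC was nearer to TR than to PRE in 77, or 33.2%. END was so in 75.9% of these genes. Their median at END-CC relative to PRE was −0.01, −0.09 and −0.27 in the 3 N6W animals, against −0.96, −0.87 and −1.06 for the 77 genes. Since the split between these lists was made on END minus END-CC, this contrast between them is no test.

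In N6W, the mean of END and END-CC minus that of PRE and TR is at right angles to both differences in the rule. This contrast is free of the choice of the genes only if PRE and TR have the same error and END and END-CC do too. Equal error was not tested, and N6W was among the animals that chose the genes, so the counts are a description. By this contrast 16 of the 77 genes were lower later and 1 was higher, which is 20.8% and 1.3%. Over all 16417 tested genes 3.44% were lower and 3.93% higher (limma, adjusted p under 0.05). Among the 12393 genes past the filters the shares were 4.16% and 4.89%. The median over the 77 was −0.44, with 61 estimates below 0 and 16 above, beside a median of −0.02 over all tested genes. Of the 232 other lowered genes, 21 were lower and 9 higher, and their median was 0.00. Leaving out animal 2907, 2908 or 2909 left 9, 10 and 10 of the 77 called, while the median stayed between −0.50 and −0.39. A fit without the animal as a block called 8, and a fit on the N6W libraries alone called 10.

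**Figure D2:**
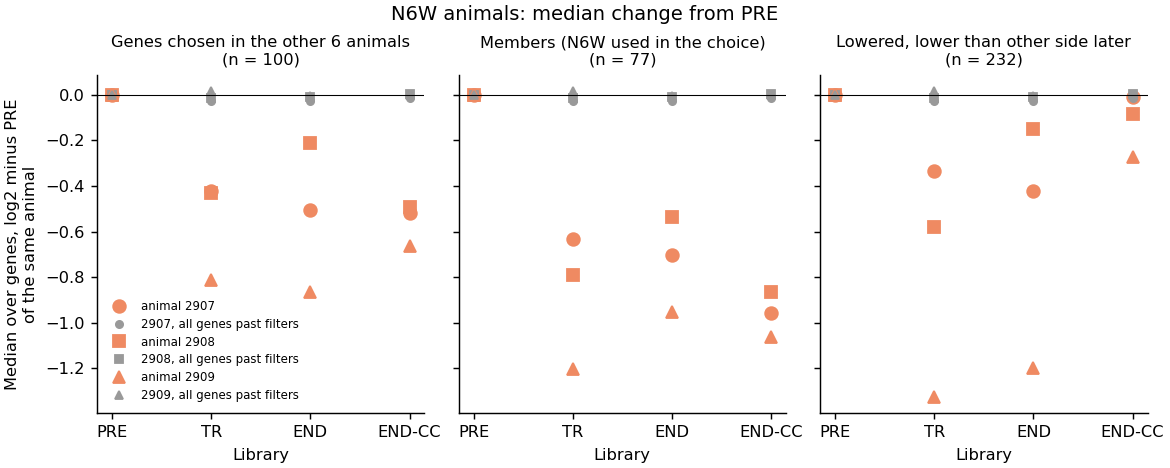
Median log2 change from PRE of the same N6W animal at TR, END and END-CC, for the 100 genes chosen in the other 6 animals (left), the 77 genes (middle) and the 232 other lowered genes (right). Each symbol is an animal, in colour for the list and in grey for all genes past the filters. In the left and middle panels the END-CC points lie within the range of the TR points, from −0.66 to −0.49 and from −1.06 to −0.87, and in the right panel they lie between −0.27 and −0.01.

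Among the 16 genes called lower, the largest decrease was that of ENSOARG00000001111, at −1.59 ± 0.32 (SE, limma, adjusted p = 0.0043). In N6W it had 73.7, 73.0 and 105 normalised reads at PRE, 19.1, 27.1 and 29.7 at TR, 10.1, 13.7 and 20.5 at END, and 13.3, 14.9 and 16.1 at END-CC. Every N6W library after PRE lay below every PRE library, and END-CC lay below TR without overlap. In the undrugged CONTROL animals it had 16.2, 5.42 and 13.2 at END and 8.56, 1.23 and 14.1 at END-CC. All of these lay below the PRE values of N6W, which are on the same scale but come from other animals.

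The decrease next in size among them was that of ENSOARG00000013020, at −1.52 ± 0.27 (SE, limma, adjusted p = 0.00218). In N6W it had 103, 95.2 and 162 normalised reads at PRE, 90.7, 98.3 and 124 at TR, 60.6, 52.0 and 39.8 at END, and 28.0, 19.8 and 40.9 at END-CC. PRE and TR overlapped there, and both groups from the end lay below them. Its place among the 77 came from N22W, where it had 13.9, 61.7 and 6.70 at TR against 69.5, 102 and 81.4 at PRE. In CONTROL it had 59.6, 95.2 and 106 at TR against 73.2, 101 and 113 at PRE, which overlap.

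ENSOARG00000006996, the gene of the 77 called higher later, stood at 2.19 ± 0.40 (SE, limma, adjusted p = 0.00236). In N6W it had 996, 643 and 2444 normalised reads at PRE, 314, 1067 and 578 at TR, 3068, 3014 and 1699 at END, and 4729, 4281 and 8835 at END-CC. The unoperated muscle at the end held the highest values of all, above every PRE and TR library of the arm. In CONTROL it had 572, 3816 and 603 at END-CC and in N22W 968, 890 and 741, so both of those arms stood below N6W on that side.

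**Figure D3:**
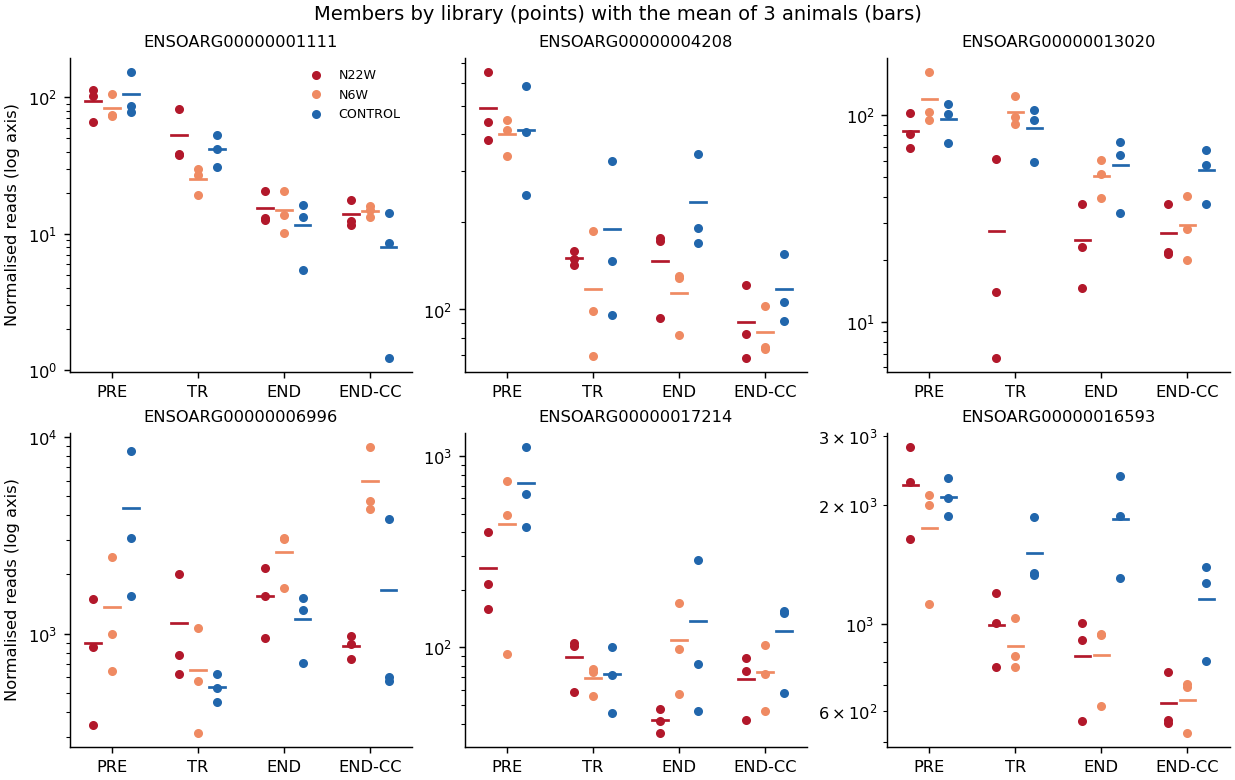
Normalised reads (log axis) of 6 of the 77 genes in each library, by sampling occasion and arm (N22W dark red, N6W orange, CONTROL blue), with the mean of 3 animals as a bar. The PRE and TR libraries of N22W and CONTROL are taken to have been scaled apart from the rest. In N6W, ENSOARG00000001111 and ENSOARG00000004208 stay low at END and END-CC, and ENSOARG00000006996 is highest at END-CC.

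The same was asked of the 100 genes that the 6 animals outside N6W had chosen, with limma on the 12 N6W libraries alone. At END-CC, 11 of the 100 were lower than at PRE and none was higher, beside 0.554% and 0.42% of all tested genes. Their median was −0.43, with 75 of 100 estimates below 0. At END, 9 were lower than at PRE and none was higher, beside 0.731% and 0.688% of all tested genes, with a median of −0.53. Among genes past the filters the shares were 0.71% lower and 0.524% higher at END-CC, and 0.92% and 0.758% at END. END-CC lay nearer to TR than to PRE in 65 of the 100, beside the 39.3% of all genes past the filters. For END the share was 70.0%, beside 60.0% of all genes past the filters, which is a smaller gap. The medians in the 3 animals were −0.42, −0.43 and −0.81 at TR, −0.51, −0.21 and −0.87 at END, and −0.52, −0.49 and −0.66 at END-CC, so each animal was low on all 3 occasions after PRE.

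Between END-CC and TR, 3 of the 100 were higher and 3 lower, beside 2.3% and 2.72% of all tested genes. Among genes past the filters the shares were 3% and 3.24%. The median over the 100 was 0.05, but single genes ran from −1.83 to 3.28. Between END and TR none of the 100 was called by limma or edgeR, nor was any tested gene by limma. At an unadjusted p under 0.05 there were 14 of the 100 and 1080 of all tested genes, edgeR called 1 gene in all, and the median was 0.01, with single genes from −1.05 to 2.11. Between END and END-CC none was called by either tool, nor was any tested gene by limma. At an unadjusted p under 0.05 there were 9 of the 100 and 2857 of all tested genes, edgeR called 3 genes in all, and the median was −0.05. A count of 0 with 3 animals does not show that the levels were equal.

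Here too the counts rest on few animals. Without animal 2907 or 2908 none of the 100 was called at END-CC or at END against PRE, and without 2909 there were 11 and 4. The 11 at END-CC include 1 gene called higher. The medians without single animals ran from −0.49 to −0.47 at END-CC and from −0.71 to −0.49 at END. The calls between END-CC and TR fell to 0 without any of the 3 animals. The PRE libraries of N6W held 11879706 to 19974692 reads and its END-CC libraries 14822464 to 16595233, and a single gene took 29.1 to 33.5% of reads at PRE and 27.5 to 30.5% at END-CC. The part of these differences in the result was not tested.

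The largest changes among the genes called at END-CC were those of ENSOARG00000001111 and ENSOARG00000004208, and at END those of ENSOARG00000015264 and ENSOARG00000001111. ENSOARG00000001111 was lower at END-CC than at PRE by −2.41 ± 0.25 (SE, limma, adjusted p = 0.00806) and lower at END by −2.46 ± 0.25 (SE, limma, adjusted p = 0.00808). ENSOARG00000004208 had 130.5, 129 and 81.5 normalised reads at END and 73.4, 103 and 74.4 at END-CC, where its difference from PRE was −2.25 ± 0.22 (SE, limma, adjusted p = 0.00806). All of its N6W libraries after PRE lay below the PRE range given above. ENSOARG00000015264 had 2.53, 16.4 and 17.9 at END, a difference from PRE of −2.47 ± 0.45 (SE, limma, adjusted p = 0.0287), without overlap. ENSOARG00000001111 and ENSOARG00000004208 lost their calls at END-CC without animal 2907 or 2908, with adjusted p from 0.127 to 0.246. At END, ENSOARG00000001111 had an adjusted p of 0.203 without 2907 and 0.0594 without 2908, and ENSOARG00000015264 had 0.0828 to 0.242 without any of the 3.

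N6W animals had been given nandrolone by the end, so the drug and the later occasion cannot be told apart within that arm. The CONTROL animals at the end and the N6W animals at PRE were all undrugged and were scaled together, but they are different animals. For the 100 genes chosen without N6W, the mean of END and END-CC in CONTROL was lower than PRE in N6W in 5 and higher in none, beside 0.512% and 0.609% of all tested genes (limma on these 9 libraries, with END and END-CC averaged in each animal). Among genes past the filters the shares were 0.654% lower and 0.742% higher. The median over the 100 genes was −0.31, with 76 of 100 estimates below 0. CONTROL animals entered the choice of these genes through their own PRE, TR and side differences, though not through this contrast. The count was 0 without animal 2901, 2902, 2907 or 2908, 4 without 2903 and 2 without 2909, and the median then ran from −0.38 to −0.28.

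Library by library, the median of the 100 genes relative to the N6W PRE mean was −0.57, −0.29 and −0.10 at END in CONTROL and −0.38, −0.46 and −0.27 at END-CC in CONTROL. In N22W it was −0.32, −0.37 and −0.52 at END and −0.44, −0.51 and −0.52 at END-CC. The 3 PRE libraries of N6W themselves stood at −0.14, 0.03 and 0.11. All END and END-CC libraries lay below these except END of CONTROL animal 2903, which lay within their range. For ENSOARG00000001111 the CONTROL difference was −3.23 ± 0.50 (SE, limma, adjusted p = 0.0375) and for ENSOARG00000004208 it was −1.31 ± 0.17 (SE, limma, adjusted p = 0.0305). The call of ENSOARG00000001111 was lost without any of the 6 animals (adjusted p 0.0536 to 0.148), and that of ENSOARG00000004208 without 2901, 2902, 2907 or 2908 (0.0653 to 0.184).

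**Figure D4:**
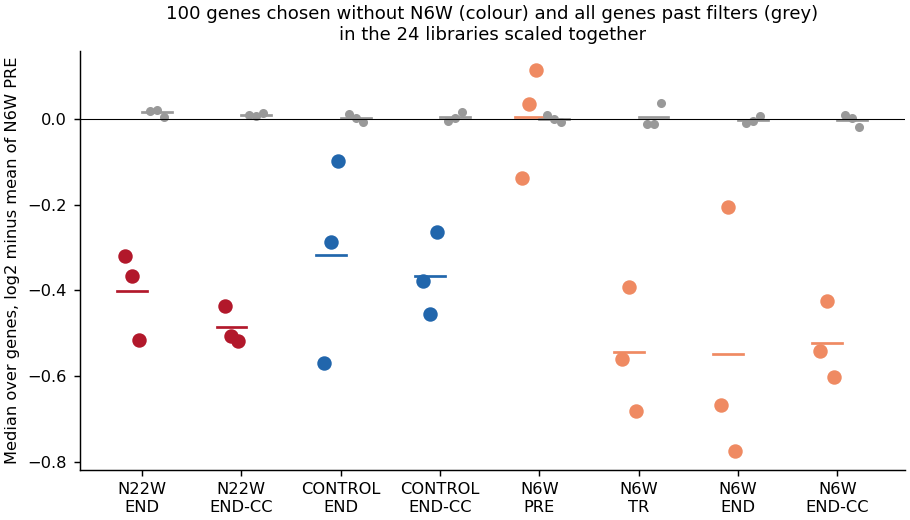
Median over the 100 genes chosen without N6W (colour) and over all genes past the filters (grey) in each of the 24 libraries scaled together, as log2 minus the mean of the 3 N6W PRE libraries. Points are animals and bars are means of 3. Every group other than PRE has its mean below −0.3, while the grey points stay near 0.

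None of the 77 genes passed the threshold of limma in any of the 4 comparisons that ask about nandrolone, and DESeq2 called a few of them at the end. For the release change of N22W against that of the undrugged N6W and CONTROL animals, limma called 0 of the 77, beside 0.0244% of all tested genes higher and 0.0305% lower. At an unadjusted p under 0.05 there were 5 of the 77 higher and 4 lower, beside 2.85% of all tested genes higher and 5.13% lower (1310 genes in all), and edgeR and DESeq2 called 0 of the 77. The median difference was −0.10 in limma, 0.02 in edgeR and 0.03 in DESeq2. Against CONTROL alone, whose PRE and TR libraries are in the same set as those of N22W, limma called 0 of the 77. The median difference was then −0.20, against −0.01 over all tested genes. An unadjusted p under 0.05 was reached there by 13 of the 77 and by 1090 of all tested genes (limma).

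The smallest p in the lower direction was that of ENSOARG00000013020, whose N22W and CONTROL values are given above. Its release change in N22W differed by −1.96 ± 0.48 (SE, limma, adjusted p = 0.165, not called). Without N22W animal 2914, which had the highest TR value of its arm, the difference was −2.67 with an adjusted p of 0.00636. The smallest p in the higher direction was that of ENSOARG00000006996, with a difference of 2.22 ± 0.70 (SE, limma, adjusted p = 0.359, not called). It had 775, 2002 and 623 normalised reads at TR in N22W against 1501, 855 and 345 at PRE, and 449.8, 624.7 and 530.8 at TR in CONTROL against 8469, 3074 and 1549 at PRE.

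On the unoperated side at the end, the nandrolone arms N22W and N6W were set against CONTROL with the 9 END-CC libraries. Limma called 0 of the 77 and 0 of all tested genes, edgeR 0 of the 77, and DESeq2 1 of the 77 and 39 genes in all. At an unadjusted p under 0.05, 14 of the 77 were lower with nandrolone and 4 higher, beside 4.15% of all tested genes lower and 3.63% higher (1278 genes in all). The median over the 77 was −0.16, against 0.00 over all tested genes.

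On the operated side at the end, limma again called 0 of the 77 and 0 of all tested genes, edgeR 0 of the 77, and DESeq2 2 of the 77 and 70 genes in all. At an unadjusted p under 0.05, 13 of the 77 were lower with nandrolone and 4 higher, beside 3.39% and 3.02% of all tested genes (1052 genes in all). The median was −0.21, against −0.01 over all tested genes. The comparisons of the sides share their animals, so their agreement is no separate support.

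ENSOARG00000016593 had the smallest p in the lower direction on both sides. At END-CC it had 570, 755 and 559 normalised reads in N22W and 529.5, 690 and 703 in N6W, against 1269, 804 and 1391 in CONTROL. At END it had 909.3, 1007 and 567.9 in N22W and 618, 941 and 939 in N6W, against 2366, 1309 and 1876 in CONTROL. The drugged animals did not overlap with CONTROL on either side. The differences were −0.84 ± 0.18 at END-CC (SE, limma, adjusted p = 0.354) and −1.15 ± 0.24 at END (SE, limma, adjusted p = 0.337), not called by limma. DESeq2 gave it adjusted p values of 0.00941 and 0.00366. At PRE, before any drug, it had 2295, 2803 and 1644 in N22W, against 1881, 2080 and 2349 in CONTROL, which overlap. The PRE libraries of N6W were scaled apart from these and are not set beside them. Before any drug, and on the scale of the END libraries, N6W had 1999, 2129 and 1121 at PRE. At TR, still before any drug, it had 777.1, 1034 and 827.6. The TR values, from released muscle not yet repaired, lay below all 3 CONTROL values at END, and the PRE values overlapped with them. At TR, N22W under nandrolone had 777, 1199 and 1007, against 1349, 1863 and 1328 in CONTROL, on the same scale and without overlap. Whether N6W differed from CONTROL in this gene before the drug was not tested.

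In the higher direction the smallest p at END-CC was that of ENSOARG00000016084, with 1218, 1305 and 1390 normalised reads in N22W and 1694, 1851 and 1536 in N6W, against 1034, 1091 and 1314 in CONTROL. Its difference was 0.38 ± 0.10 (SE, limma, adjusted p = 0.446, not called), and N22W overlapped with CONTROL. At END it was that of ENSOARG00000000850, with 212, 247 and 216 in N22W and 215, 112 and 103 in N6W, against 86.0, 84.6 and 149 in CONTROL. Its difference was 0.76 ± 0.26 (SE, limma, adjusted p = 0.675, not called), and N6W overlapped with CONTROL.

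Whether the difference between the sides itself varied with nandrolone was asked last. Limma, edgeR and DESeq2 called 0 of the 77, and limma 0 of all tested genes. At an unadjusted p under 0.05 there were 1 of the 77 higher and 2 lower, beside 1.7% of all tested genes higher and 2.89% lower (754 genes in all), and the median over the 77 was 0.03. ENSOARG00000022082 had the smallest p in the lower direction, at −1.69 ± 0.41 (SE, limma, adjusted p = 0.852, not called). In N22W it had 31.1, 14.1 and 14.7 normalised reads at END and 26.9, 18.9 and 15.1 at END-CC, and in N6W 12.6, 13.7 and 13.2 at END and 17.3, 9.90 and 11.7 at END-CC. In CONTROL it had 34.9, 39.0 and 15.8 at END and 6.66, 8.59 and 9.09 at END-CC. The sides overlapped in N22W and N6W and did not in CONTROL. ENSOARG00000002415 had the smallest p in the higher direction, at 1.17 ± 0.52 (SE, limma, adjusted p = 0.985, not called). It had 12.6, 10.2 and 11.5 at END and 20.5, 9.85 and 9.77 at END-CC in N22W, 5.05, 8.21 and 11.9 at END and 1.33, 4.95 and 5.84 at END-CC in N6W, and 6.23, 5.42 and 15.2 at END and 15.2, 9.82 and 19.2 at END-CC in CONTROL. The sides overlapped in every arm.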

How the data were processed

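Infraspinatus muscle of 9 sheep was measured by stranded total RNA sequencing after depletion of ribosomal RNA, per the labels' protocols, in 4 libraries per animal. STAR 2.3.0e, R 3.0.2 and the assembly Oar_v3.1 appear in the submitters' processing notes, with no role stated. The deposited files hold 1 signal per gene, written to 4 significant digits, and no source used here gives their unit or normalisation. In each library every value up to 100 reads was within 0.1 of a whole multiple of a single step (100.0% in each library), so the values were read as reads divided by a size factor of the library, and the authors' scaling was kept. The 12 libraries of CONTROL and N22W taken at PRE and TR were read as scaled apart from the other 24 and differ from them in make-up. For this reason no test crosses these sets except as a difference of changes.

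The groups come from the sample titles. Values were used as log2(value + 1), which understates changes of genes with low values. Because the deposited values are not whole counts, the main result comes from limma 3.58.1, with a prior that depends on the mean, in place of a count test. It covers the 16417 genes whose median reached 0.5. Within-animal changes used the 36 libraries together, blocked by animal, with 1 mean per arm and occasion. Comparisons of a single occasion used its 9 libraries, and lists chosen without an arm on the 12 libraries of that arm. P values are two-sided and adjusted by Benjamini-Hochberg over all 16417 genes, with a threshold of 0.05. The animal numbers pair the libraries because the same animal gave them, and their deviations from group means correlated within an animal by 0.24 on average, and by over 0.1 in 50 of 54 pairs. No 2 libraries held identical values. Alternatives were a pseudocount of 0.5, no filter, TMM scaling, no block, fewer libraries, each animal left out, and edgeR 4.0.16 and DESeq2 1.42.0 on recovered reads. The tests were also run on simulated counts, drawn without an animal effect and without a difference between the sets. That check does not cover these features of the data.

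The genes, lists and comparisons were chosen with earlier results of these data known. The comparisons of END and END-CC with PRE, with TR and with each other in N6W, and that of CONTROL with PRE of N6W, were added after the tables were seen. Named are the pair with the most negative release change, the pair with the highest median, and for each comparison up to 2 called genes per direction with the largest change or, with none called, the gene with the smallest p per direction. The name table has 35057 entries, of which 0 give an Ensembl identifier, and so 0 of the 25197 genes matched it. For this reason gene lists, cell type markers and sequences were not used here.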

Additional observations from a re-analysis of the deposited data

How the results depend on the processing

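The 77 genes themselves depend on the choices made. Leaving out 1 animal at a time gave 65 to 94 genes, TMM scaling 56, all among the 77, a pseudocount of 0.5 gave 83, with all 77 among them, and a release threshold of −1 gave 21. For the later against the earlier libraries of N6W, 17 of the 77 were called, 8 without the replicate block, 10 with only the libraries compared, and 9 to 17 with 1 animal left out. Without a filter on low values the genes called of those chosen elsewhere were 16 of 111 for release in CONTROL, 23 of 93 for release in N22W and 0 of 100 for release in N6W. In the same setting they were 2 for END-CC against PRE, 1 for END against PRE, 0 for END-CC against TR and 0 for CONTROL at the end against N6W PRE. This filter sets how many genes are tested and the prior of the fit. Without the replicate block the counts were 15 for release in CONTROL, 2 for release in N6W, 5 for END-CC against PRE, 2 for END against PRE and 2 for END-CC against TR. EdgeR called 14 for END against PRE. With 1 animal left out the counts ran from 7 to 25 for release in CONTROL, 12 to 29 in N22W and 0 to 1 in N6W, and from 0 to 11 for END-CC against PRE, 0 to 4 for END against PRE and 0 to 4 for CONTROL at the end against N6W PRE, with 0 for END-CC against TR, END against TR and END against END-CC. For nandrolone, DESeq2 called 1 of the 77 at END-CC and 2 at END, and the release comparison gave 0 to 1 with 1 animal left out. With the same choice, 0 were called at END-CC, END and between the sides. The medians over the lists ran, with 1 animal left out, from −0.23 to 0.08 for release under nandrolone, from −0.23 to −0.04 at END-CC, from −0.31 to −0.07 at END, from −0.07 to 0.10 for the sides and from −0.50 to −0.39 for later against earlier. For genes chosen elsewhere they ran from −0.63 to −0.49 for release in CONTROL, −0.75 to −0.50 in N22W and −0.58 to −0.41 in N6W. Against PRE they ran from −0.49 to −0.47 at END-CC, −0.71 to −0.49 at END and −0.38 to −0.28 for CONTROL at the end. They ran from −0.07 to 0.06 for END against TR, −0.02 to 0.10 for END-CC against TR and −0.13 to 0.01 for END against END-CC. No direction of a called result reversed in these settings, and the causes of the changes in counts were not tested. With an animal left out, 1 gene of a list was at times called higher where the main fit called none higher. This was so for release in CONTROL without 2901 or 2902 and for END-CC against PRE without 2909. With 3 animals an arm, a gene of few reads has a wide error, and a missed call does not show equal levels.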
